A study of Mus musculus with 8 samples.

Results

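The comparison described here is that of Nfil3 knockout all-lymphoid progenitors (ALP) with wild-type ALP, on 4 of the 8 arrays of a mouse expression study of natural killer (NK) cell development. The ALP arrays were chosen by their titles, 2 knockout (KO) and 2 wild type (WT). The other 4 arrays hold prepro NK cells of the same genotypes. Every group had 1 array from each of the 2 processing dates, and the replicate number is that date. All 17097 genes with a probe set of a single gene symbol were taken, each by its probe set of the highest mean over the 8 arrays, and 11583 were tested after a filter on dim probe sets.

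All cells, wild type and knockout, came from lineage-depleted bone marrow of mice with the ID2-GFP reporter, were sorted by flow cytometry and lysed without culture. The sources used here state neither the knockout allele nor the ages of the mice nor how many mice made up a sample. RNA was amplified for 23 cycles before labelling. The sources used here do not say whether replicates came from separate animals. Sex-linked transcripts, described further on, differed between the 2 dates. In a fit without a term for the date, the spread behind each p-value thus holds date, sex and technical differences that cannot be told apart. A fit with the replicate as a block takes out the date difference that the groups share. Values are log2 RMA intensities, so a difference of 1 is a 2-fold difference. With 2 arrays a group, their number limits the precision.

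NFIL3, also called E4BP4, is a basic leucine zipper transcription factor that mostly represses its targets, and it binds DNA elements shared with the PAR bZIP activators DBP, TEF and HLF. Mice without it are known for a severe lack of NK cells. ALP are an early bone marrow progenitor with lymphoid potential, upstream of prepro NK cells, and ID2 is an inhibitor of E proteins that marks the innate lymphoid branch.

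The ALP arrays carried the early lymphoid genes. Flt3, the receptor for FLT3 ligand, read 9.14 and 8.10 in WT and 9.14 and 8.64 in KO. Dntt, which encodes terminal deoxynucleotidyl transferase, read 10.87 and 10.17 in WT and 10.86 and 10.48 in KO. Both genes were high in every ALP array of either genotype, as was Cd27 at 7.62 to 9.02. Kit was lower, at 3.85 to 5.90, and 2 further ALP markers, Il7r and Ly6a, had no probe set of a single symbol. The T-box factor Tbx21 (2.54 to 3.01) and Gata3 (3.04 to 3.58) lay below the array medians of 3.93 to 4.13 in all 4 arrays.

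Nfil3 itself was lower in the knockout at both dates, by unequal amounts. It read 6.89 and 5.50 in WT replicates 1 and 2, and 3.41 and 4.15 in KO replicates 1 and 2. Both KO arrays were below both WT arrays, with KO replicate 1 below its array median and KO replicate 2 just above it. The KO minus WT difference was -3.47 in replicate 1 and -1.35 in replicate 2, with a mean of -2.41 ± 0.52 (SE, n = 2 a group). It had the smallest p of all genes in the limma fit to the 8 arrays (unadjusted p = 0.00174), but its adjusted p was 1.0. In a limma fit to the 4 ALP arrays with the replicate as a block the adjusted p was 0.0332, and after quantile normalization in that same fit it was 0.538. In prepro NK cells Nfil3 differed by -0.91 and -1.17, and the interaction of genotype and population had an unadjusted limma p of 0.0985 and an adjusted p of 1.0.

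The gene next to Nfil3 differed in the opposite direction. Auh encodes a mitochondrial enzyme of leucine breakdown that also binds AU-rich RNA, and among protein-coding genes in the RefSeq order of GRCm38.p6 it is the immediate neighbour of Nfil3 on one side. It read 6.34 and 6.19 in WT and 7.91 and 7.35 in KO, so that both KO arrays were above both WT arrays. The difference was 1.57 in replicate 1 and 1.16 in replicate 2, with a mean of 1.37 ± 0.44 (SE) and a 2.58-fold higher value. Auh had the second smallest p of all genes after Nfil3 (limma unadjusted p = 0.0156, adjusted p = 1.0; adjusted p = 0.0537 in the fit to the ALP arrays with the block). By this probe set Auh was also higher in KO prepro NK cells, by 0.39 and 1.45. Its other probe sets differed there by 0.18 and 2.94, 0.29 and 1.10, -0.06 and 0.87, and 0.33 and -0.36. Not all were thus higher at both dates.

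The array has 5 probe sets for Auh, and all 5 were higher in KO in both replicates. Their mean differences were 0.48, 1.37, 1.51, 2.15 and 2.19. The last read 5.07 and 4.47 in WT and 7.36 and 6.56 in KO, and the one before it 5.76 and 5.06 in WT and 7.76 and 7.36 in KO. The KO and WT arrays did not overlap for any of the 5. The 2 probe sets with the largest differences had the smallest p values of all 17964 probe sets when every probe set was tested on its own in a fit to the ALP arrays with the block, an analysis chosen after the values had been seen. Both then had a limma adjusted p of 4.89e-05, ahead of Nfil3 at 0.00201, and 4 of the 5 Auh probe sets passed, among 59 called overall (0.328% of the probe sets). After quantile normalization none of the 17964 passed (0.0%, with 1763 at an unadjusted p under 0.05), and the same 2 Auh probe sets then had adjusted p of 0.0768 and 0.102. Fits to all 8 arrays called none either, with or without the block, with 14 probe sets at an unadjusted p under 0.05 without it and 82 with it.

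**Figure D1:**
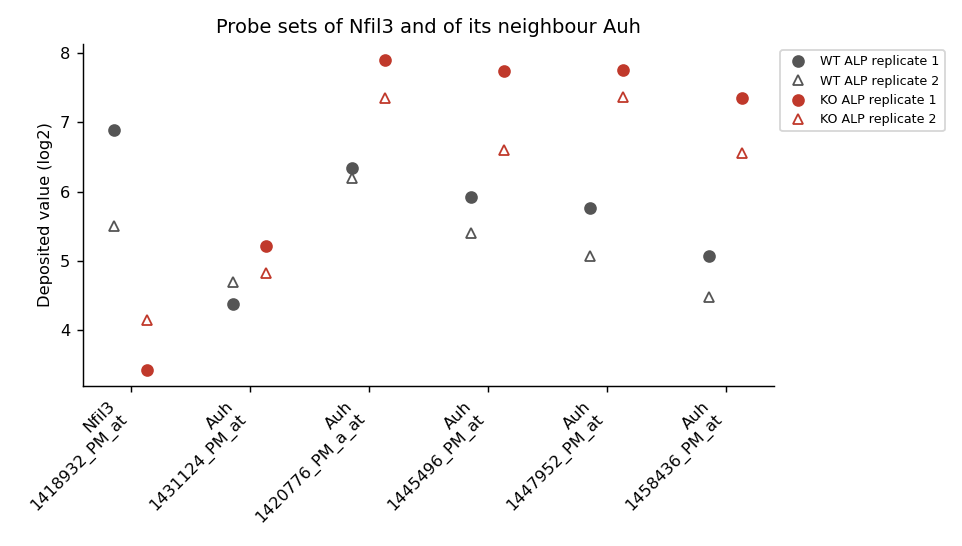
Deposited log2 values of the Nfil3 probe set and the 5 Auh probe sets (horizontal axis) in the 4 ALP arrays; grey is WT, red is KO, circles are replicate 1 and triangles replicate 2. Nfil3 is lower in KO (3.41 and 4.15) than in WT (6.89 and 5.50), while each Auh probe set has both KO points above both WT points.

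The other genes tested around Nfil3 had smaller mean differences than Auh. Of 14 genes tested within 10 protein-coding genes on each side, Auh included, 8 were higher in both replicates and 5 lower in both. Over all genes tested the shares were 41.8% and 25.3%. Syk, a kinase of immune receptor signalling that lies just beyond Auh, differed by 0.09 and 0.27. Diras2 differed by -0.15 and -0.27 and Sptlc1 by 0.51 and -0.08. The gene with the next largest difference after Auh was Cks2, a subunit of cell cycle kinases, at 0.55 and 1.26 with overlapping groups. S1pr3, a receptor for sphingosine 1-phosphate, differed by 0.41 and 1.19, and the semaphorin Sema4d by 0.26 and 0.72. For S1pr3 and Sema4d the KO arrays were above the WT arrays without overlap (8.68% of all genes tested). For Diras2 and Cplx2 (-0.63 and -0.36) they were below without overlap (7.4% of all genes tested). Ror2, the neighbour on the other side of Nfil3, lay below the filter at 2.54 to 2.76.

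Across all genes, the fit to 8 arrays called no gene at an adjusted p under 0.05 (0.0% of 11583). It found 5 at an unadjusted p under 0.05 (0.0432%), 4 of them higher in KO. That share is far below the one expected at this threshold without any difference. The fit has no term for the date and takes in the spread of prepro NK WT replicate 2. A high adjusted p in it does not show that a gene is unchanged. The median SE of a gene was 0.47, above the median size of a difference, 0.24. With the replicate as a block the 8 arrays again gave 0 calls, with 44 genes at an unadjusted p under 0.05. The 4 ALP arrays with the block lowered the median SE to 0.22 and called 2 genes (0.0173%), Nfil3 and Ssty2, both lower in KO. In that fit 1515 genes were higher (13.1%) and 586 lower (5.06%) at an unadjusted p under 0.05. Because that fit leaves 1 residual degree of freedom, its p-values rest largely on the spread pooled over genes.

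The replicates gave related differences. Over the 11583 genes the differences in replicates 1 and 2 correlated at a Pearson r of 0.416 (Spearman rho 0.44), and at 0.308 after quantile normalization; this is across genes, which are not independent. The SD of the differences was 0.304 in replicate 1 and 0.522 in replicate 2. At least 0.5 higher in both replicates were 297 genes and at least 0.5 lower 117, and at 1 the counts were 5 and 4.

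**Figure D2:**
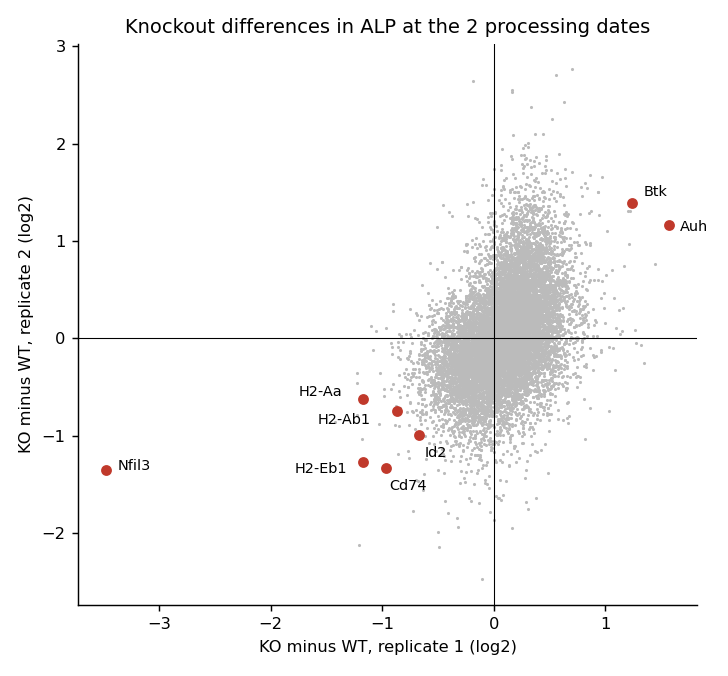
KO minus WT difference of each of the 11583 genes tested in ALP, replicate 1 on the horizontal axis and replicate 2 on the vertical axis, both in log2. Nfil3 lies alone at the lower left (-3.47, -1.35), Auh and Btk at the upper right, and H2-Eb1 and Cd74 below the cloud.

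The balance of higher and lower genes depended on how the arrays were scaled. In the deposited values 4842 genes were higher in KO in both replicates (41.8%) and 2935 lower in both (25.3%). After quantile normalization 3222 were higher in both (27.8%) and 3923 lower in both (33.9%), and after scaling each array to 1 median and SD the shares were 33.6% and 28.0%. The median difference over all genes was 0.06 in the deposited values and -0.03 after quantile normalization. The difference followed the level of the gene: with the genes in 4 equal groups by mean ALP level, its median was -0.14 in the dimmest group, -0.03 and 0.16 in the next ones, and 0.25 in the brightest. In the brightest group 1951 of 2896 genes were higher in both replicates, and quantile normalization brought its median to 0.03.

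The arrays themselves differed in range in the same way. The SD over all probe sets was 1.78 and 1.55 in WT and 1.88 and 1.66 in KO, so that WT replicate 2 had the narrowest range of the 4 and each KO array a wider one than the WT array of its date. In WT replicate 2 682 tested genes reached a log2 value of 8, against 884 to 1498 in the other 3. The 9 hybridization spike-in probe sets averaged 9.53 and 10.48 in WT and 8.55 and 9.65 in KO, and all 9 were lower in KO at both dates, by 0.976 and 0.832 on average. WT and KO arrays of the same date correlated at 0.986 and 0.938, and the 2 WT arrays with each other at 0.869. The part of these array differences in the gene differences was not tested. Among the prepro NK arrays WT replicate 2 stood apart: its SD was 1.39, 310 tested genes reached 8 against 682 to 1498 in the other 7 arrays, and it correlated with them at 0.504 to 0.747. Every replicate 2 difference given here for prepro NK cells rests on that array.

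**Figure D3:**
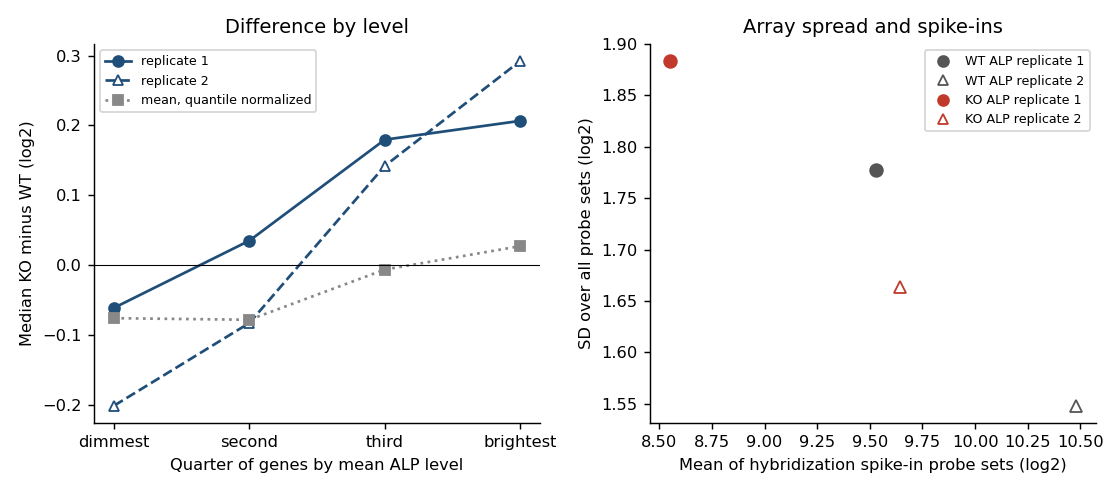
Left, median KO minus WT difference (log2) of the genes tested in 4 equal groups by mean ALP level, for each replicate and for the mean after quantile normalization; right, SD of each ALP array over all probe sets (log2) against the mean of its spike-in probe sets (log2). The median climbs from -0.14 to 0.25 on average in the deposited values, and the array with the highest spike-ins, WT replicate 2, has the narrowest range.

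Sex-linked transcripts went with the date and not with the genotype. Xist, the RNA of X inactivation, read 3.56 and 7.94 in WT and 3.10 and 9.30 in KO. The Y-linked Eif2s3y read 6.60 and 5.22 in WT and 6.82 and 4.61 in KO. Replicate 2 of both genotypes was thus higher in Xist and lower in Eif2s3y than replicate 1.

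Among the genes higher in KO in both replicates, the 12 with the largest smaller difference were Btk, Ms4a6c, Tex2, Auh, Dnaja1, Pradc1, Scpep1, 2310022B05Rik, Anp32e, Psmb7, Gfm1 and Uchl3. They were chosen on this contrast, so their size is a description. Btk, the cytoplasmic kinase of B cell receptor signalling, read 6.27 and 4.73 in WT and 7.51 and 6.12 in KO. Its differences of 1.24 and 1.39 were alike, while the date shifted both genotypes by more than 1, so the groups overlapped. For 4 of the 12 both KO arrays were above both WT arrays (8.68% of all genes tested), namely Auh, Pradc1, Scpep1 and Uchl3.

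Scpep1, a serine carboxypeptidase, read 5.56 and 4.59 in WT and 6.50 and 5.86 in KO (0.95 and 1.27), and it was also higher in KO prepro NK cells, by 2.30 and 2.33. Uchl3, a ubiquitin hydrolase, read 5.32 and 3.77 in WT and 6.18 and 5.45 in KO. The co-chaperone Dnaja1 read 6.31 and 4.89 in WT and 7.32 and 6.0 in KO. In each of the last 2 genes the replicate 2 arrays were the lower ones of their genotype, and only for Uchl3 did the groups not overlap. The proteasome subunit Psmb7 (0.87 and 1.31), the histone chaperone Anp32e (0.93 and 1.5) and the mitochondrial elongation factor Gfm1 (0.87 and 0.98) were among those with overlapping groups. Just inside the limit of the 12 were Gfm1 and Uchl3 with a smaller difference of 0.87 and 0.86, and just outside Rassf4 (0.86) and Ndufa1 (0.85). The second Ms4a6c probe set was lower in KO (-0.0015 and -1.06). That of Dnaja1, above the array median on all 4 ALP arrays, differed by 0.46 and 0.03. Second probe sets of Scpep1 (0.80 and 0.73) and Anp32e (0.32 and 1.07) were higher at both dates. The dim ones of Tex2 and Gfm1 differed by 0.33 and 0.37 and by 0.21 and -0.05. Of the 12, 8 were higher in both replicates of KO prepro NK cells. The share of all genes higher in both was not counted there, and its replicate 2 rests on the WT array that stood apart.

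Other genes among the 5 smallest p values of the higher direction were Mid1 and Sox12. Sox12, a SOX family transcription factor, read 6.95 and 6.50 in WT and 7.64 and 7.46 in KO (0.82 ± 0.35 SE, limma unadjusted p = 0.0466, adjusted p = 1.0). Both KO arrays were above both WT arrays (8.68% of all genes tested). Another Sox12 probe set above the array medians differed by 0.0026 and 0.70. Its difference in prepro NK cells was 0.04 and 0.08.

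Among the genes lower in KO, the 12 were Nfil3, Ssty2, H2-Eb1, 2610035D17Rik, Cd74, Trpc4, Vmn2r42, Tfr2, Pnliprp2, Nectin1, Ttc39b and Crabp2. For 8 of them both KO arrays were below both WT arrays (7.4% of all genes tested). Ssty2 belongs to a Y-linked multicopy family and Vmn2r42 to the large family of vomeronasal receptors, so that probe sets may not tell near-identical copies apart. Ssty2 read 4.61 and 8.0 in WT and 3.40 and 5.88 in KO, and Vmn2r42 4.34 and 7.05 in WT and 3.48 and 5.87 in KO. Both were higher in replicate 2 of each genotype, where Xist was high and Eif2s3y low, and their groups overlapped.

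The non-coding RNA 2610035D17Rik read 7.06 and 6.14 in WT and 5.88 and 5.11 in KO. Nectin1, an adhesion molecule of the immunoglobulin family, read 5.89 and 6.82 in WT and 5.12 and 5.66 in KO. Tfr2, the second transferrin receptor, read 5.19 and 4.87 in WT and 3.76 and 4.01 in KO. The groups did not overlap for any of the 3, and the KO values of Tfr2 lay at or below the array medians. The second Tfr2 probe set, above the median on 3 of the 4 arrays, was slightly higher in KO (0.23 and 0.08), so its probe sets disagreed. Just inside the limit were Ttc39b and Crabp2, both at -0.76, and just outside Ccl27a (-0.76) and H2-Ab1 (-0.75).

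In the MHC class II pathway the largest falls were those of the surface chains and Cd74. MHC class II molecules present peptides to helper T cells: the chains H2-Aa, H2-Ab1 and H2-Eb1 form the surface molecules, the invariant chain Cd74 escorts them, H2-DM loads peptides, H2-DO restrains H2-DM, and CIITA is the transactivator of the genes. Their promoters share a set of boxes that ends in a Y box, the CCAAT element bound by NF-Y. The windows below, the 150 bases before the RefSeq start in GRCm38.p6, are shown for 2 genes that were lower in KO and 2 that were not. Capitals mark each CCAAT, on either strand (read as CCAAT or ATTGG).

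H2-Eb1, chr17:34305717-34305866, plus strand: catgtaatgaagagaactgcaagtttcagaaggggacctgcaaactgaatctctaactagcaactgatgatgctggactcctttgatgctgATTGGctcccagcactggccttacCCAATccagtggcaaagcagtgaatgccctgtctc
H2-Aa, chr17:34287824-34287973, minus strand: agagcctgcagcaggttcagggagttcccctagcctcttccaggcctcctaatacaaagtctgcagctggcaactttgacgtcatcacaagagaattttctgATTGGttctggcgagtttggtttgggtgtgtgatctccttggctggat
H2-DMb1, chr17:34153041-34153190, plus strand: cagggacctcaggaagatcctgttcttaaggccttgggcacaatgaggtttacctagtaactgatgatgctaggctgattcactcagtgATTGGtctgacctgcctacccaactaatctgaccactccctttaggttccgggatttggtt
H2-Oa, chr17:34092229-34092378, plus strand: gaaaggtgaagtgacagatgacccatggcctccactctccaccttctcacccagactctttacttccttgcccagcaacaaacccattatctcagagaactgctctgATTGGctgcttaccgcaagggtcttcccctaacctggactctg

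The element stood 59 and 35 bases before the start in H2-Eb1, 48 in H2-Aa, 61 in H2-DMb1 and 43 in H2-Oa. Of 8 windows of the MHC class II genes tested, 6 held it, against 8047 of all 32851 windows (24.5%). Genes that were lower in KO and genes that were not thus both carried it. None of the 8 windows, in their full length of 300 bases, held TTACGTAA, TTATGTAA or the looser TTANNTAA, elements of the kind bound by NFIL3. Nor did any window of the 12 highest or the 12 lowest genes, of which 11 and 9 had one. The 3 elements were in 0.119%, 0.938% and 6.0% of all windows. A match or its absence describes these letters in these windows only.

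H2-Eb1 read 7.62 and 7.04 in WT and 6.45 and 5.77 in KO, a difference of -1.17 and -1.27 (mean -1.22 ± 0.82 SE; limma unadjusted p = 0.175, adjusted p = 1.0). Cd74 read 7.53 and 6.86 in WT and 6.56 and 5.53 in KO (-0.97 and -1.33). H2-Aa read 7.60 and 6.61 in WT and 6.43 and 5.98 in KO (-1.17 and -0.62). For these 3 genes both KO arrays were below both WT arrays (7.4% of all genes tested). H2-Ab1 read 8.88 and 7.99 in WT and 8.01 and 7.24 in KO (-0.87 and -0.75), with the lower WT array just under the higher KO array. Its other probe sets differed by -1.20 and -0.27 and by -0.81 and 0.41, so H2-Ab1 had no uniform difference in replicate 2. The second H2-Aa probe set, below the array median on 3 of the 4 arrays, differed by -1.41 and -0.36.

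No other member of the list was lower by as much. H2-DMa read 8.64 and 7.36 in WT and 8.96 and 8.18 in KO (0.33 and 0.82, mean 0.57). With KO arrays of both dates set against WT replicate 1 alone, which mixes in the date, its mean was -0.06. H2-DMb2 differed by 0.01 and 0.33, H2-DMb1 by -0.07 and 0.44, and H2-Oa by -0.05 and 0.44. H2-Ob differed by -0.03 and -0.18, and Ciita, which did not pass the filter, by -0.39 and -0.16. The surface chains and Cd74 were set apart from the other members after the values were seen, and this division has no test. Over the whole list of 9 tested members 2 were higher in both replicates and 5 lower in both, with a median of -0.11 beside 0.06 over all genes, and of -0.34 beside -0.03 after quantile normalization.

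The standard errors of the 8-array fit take in the spread of the prepro NK arrays, in which H2-Eb1 differed by -0.47 in replicate 1 and 1.95 in replicate 2, and Cd74 by -0.93 and 2.46. In the fit to the ALP arrays with the block the limma adjusted p was 0.0617 for H2-Eb1 and 0.0889 for Cd74. When every probe set was tested on its own in that fit, an analysis chosen after the values had been seen, limma gave an adjusted p of 0.0257 for H2-Eb1 and 0.0362 for Cd74, and after quantile normalization 0.467 and 0.499. Genes of B cells and dendritic cells, which carry most MHC class II, are given beside these values. The summed log2 level of the 9 B lineage genes tested was 47.8 and 49.4 in WT and 48.0 and 48.5 in KO, with 4 higher and 5 lower in both replicates. Their median difference was -0.17. For 1 of them both KO arrays were above both WT arrays and for 2 below (8.68% and 7.4% of all genes tested). The 9 dendritic cell genes tested summed to 43.0 and 43.1 in WT and 43.5 and 41.1 in KO, with 1 higher and 2 lower in both. Pax5, which defines the B lineage, was at 3.29 and 4.19 in WT and 3.25 and 3.68 in KO. Zbtb46, of classical dendritic cells, was at 3.27 and 3.95 in WT and 3.43 and 3.68 in KO. Both genes lay below the array median, except Pax5 just above it in WT replicate 2, so they give no clear reading. The part of either cell type in the MHC class II differences was not tested. In these sorted bulk samples fewer cells of a type and less RNA per cell cannot be told apart.

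**Figure D4:**
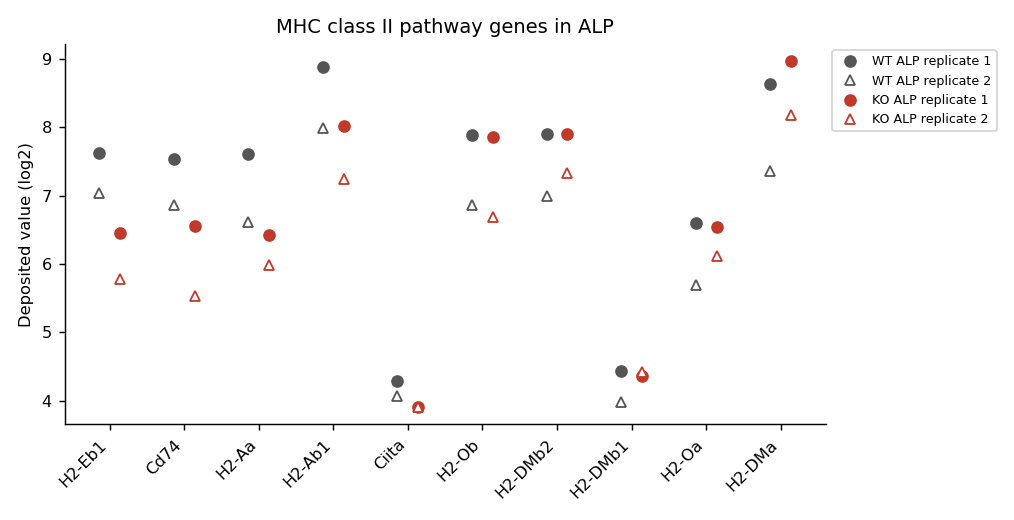
Deposited log2 values of the 10 MHC class II pathway genes in the 4 ALP arrays, ordered by their mean KO minus WT difference; grey is WT, red is KO, circles are replicate 1 and triangles replicate 2. For H2-Eb1, Cd74 and H2-Aa both KO points lie below both WT points, while H2-DMa at the right is higher in KO at each date.

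Id2 was lower in the knockout ALP. It read 6.83 and 6.94 in WT and 6.16 and 5.94 in KO, with both KO arrays below both WT arrays (7.4% of all genes tested). Id2 differed by -0.67 and -1.0 (mean -0.83 ± 0.69 SE, limma unadjusted p = 0.263, adjusted p = 1.0). Its other 2 probe sets were below the array median in all ALP arrays and give no second reading. In prepro NK cells Id2 differed by -0.20 and 1.49. How the reporter allele affects the Id2 probe sets was not tested.

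Of the other 10 NK and innate lymphoid transcription factors tested, none differed by as much on average. Ets1 read 6.92 and 5.41 in WT and 7.15 and 6.36 in KO (0.23 and 0.95), with overlapping groups, and a second bright probe set differed by -0.13 and 0.40. Runx3 differed by 0.16 and 0.60, Zbtb16 by 0.08 and 0.02, and Eomes, near the array median, by -0.15 and -0.25. Tbx21, below the median in all ALP arrays, and Il2rb, the shared receptor chain for IL-2 and IL-15, above it in 1, passed the filter through the prepro NK arrays. Tbx21 differed by -0.02 and 0.15 in ALP and by 2.16 and 3.40 in prepro NK cells. Il2rb differed by -0.09 and -0.77 in ALP and by 2.14 and 3.14 in prepro NK cells. The list as a whole had 3 members higher and 5 lower in both replicates, with a median of -0.06.

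The PAR bZIP factors, which share DNA elements with NFIL3, were lower in KO by small amounts. Dbp read 5.76 and 6.01 in WT and 5.28 and 5.48 in KO (-0.48 and -0.53). Tef differed by -0.13 and -0.15, and Hlf by -0.04 and -0.14. For all 3 genes both KO arrays were below both WT arrays (7.4% of all genes tested), and no difference passed the test. For scale, the median difference in the dimmest group of all genes was -0.14. The second Tef probe set was close to even (0.20 and -0.01), and the second Hlf probe set was near the array median.

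Of 15 clock and PAR bZIP genes tested, 3 were higher and 7 lower in both replicates, with a median of -0.04. Per1 was among the higher ones at 5.47 and 5.33 in WT and 5.93 and 5.85 in KO. Per2 read 5.67 and 6.40 in WT and 5.50 and 5.34 in KO, and the transactivator Arntl 3.20 and 4.30 in WT and 3.06 and 3.16 in KO. The differences of Per2 (-0.17 and -1.06) and Arntl (-0.13 and -1.13) came mostly from WT replicate 2, while those of Per1 (0.47 and 0.52) and Dbp were alike at both dates. Arntl was above the array median in only 1 ALP array. Its dim second probe set differed by 0.07 and 0.05, and the dim second probe set of Per2 by 0.52 and 0.26.

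Early lymphoid genes were mostly at or above their WT level in the knockout ALP. Of 13 early lymphoid progenitor genes tested, 10 were higher in KO in both replicates and 0 lower, with a median of 0.29 (0.12 after quantile normalization, with 6 higher and 0 lower). Rag2, of the V(D)J recombinase, read 4.89 and 4.32 in WT and 5.29 and 4.91 in KO. Both KO arrays were above both WT arrays (8.68% of all genes tested), the one such gene of the list. Cd93 differed by -0.05 and 1.19, Satb1 by 0.29 and 0.68, and Kit by 0.35 and 0.75.

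Of 16 lymphoid specification factors tested, 12 were higher and 1 lower in both replicates, with a median of 0.32 (0.21 after quantile normalization, with 8 higher and 4 lower). Cbfb, the partner of RUNX proteins, read 6.60 and 6.27 in WT and 7.30 and 7.01 in KO (0.70 and 0.74). Its KO arrays were above its WT arrays without overlap (8.68% of all genes tested). The zinc finger factor Bcl11a differed by 0.30 and 0.82, Myb by 0.40 and 0.81, and the E protein Tcf3 by -0.08 and -0.04. Most members of both lists are bright genes, and the median level of each list was above 7, in the range where genes overall were higher in KO. In the brightest group of all genes 1951 of 2896 were higher in both replicates and 169 lower. Without WT replicate 2, the array of the narrow range, the medians became -0.02 for the early lymphoid list and -0.04 for the specification factors. That comparison sets KO arrays of both dates against WT replicate 1 alone, so it mixes genotype with date. Within replicate 1 the 2 medians were 0.18 and 0.21.

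Proliferation genes showed the same lean as bright genes in general. Over all genes tested 41.8% were higher in both replicates and 25.3% lower. In the brightest group, from a level of 6.74 up, 1951 of 2896 were higher and 169 lower. The median levels of the DNA replication and mitosis lists were 7.20 and 6.71. Of 24 DNA replication genes tested, 19 were higher and 0 lower in both replicates, with a median of 0.33 (0.14 after quantile normalization, with 12 higher and 2 lower). Mcm6, a subunit of the replicative helicase, read 7.55 and 5.46 in WT and 8.14 and 7.35 in KO. Gins1 differed by 0.36 and 1.46 and Pcna by 0.44 and 1.08, in each case more at the date of the narrow WT array. Of 21 mitosis genes, 17 were higher and 0 lower in both, with a median of 0.34 (0.16 after quantile normalization, 10 higher and 3 lower). Aurkb differed by 0.65 and 0.71, and Mki67 by 0.11 and 0.10. Without WT replicate 2 the list medians became -0.0012 for DNA replication and -0.05 for mitosis. That comparison sets KO arrays of both dates against WT replicate 1 alone, so it mixes genotype with date. Within replicate 1, which does not use WT replicate 2, the medians were 0.30 and 0.29. Mycn, a MYC family factor, went the other way at 8.22 and 8.25 in WT and 7.73 and 7.79 in KO. Its groups did not overlap (7.4% of all genes tested), but another bright Mycn probe set differed by 0.19 and -0.30. Myc differed by 0.29 and 0.56.

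Lists of dimmer genes leaned to the other side in the deposited values. In the dimmest group of all genes 502 of 2896 were higher in both replicates and 1340 lower. Of 13 T lineage genes tested, 1 was higher and 7 were lower in both replicates, with a median of -0.10 (-0.02 after quantile normalization, with 1 higher and 5 lower), and only 5 of the 13 were above the array median in all ALP arrays. Bcl11b, the T lineage commitment factor, read 4.56 and 5.40 in WT and 4.11 and 4.45 in KO, and its other 3 probe sets were dim. Of 9 NK receptor genes 1 was higher and 6 were lower in both, with a median of -0.13 (-0.05 after quantile normalization, with 2 higher and 3 lower), and 4 of the 9 were above the array median in all ALP arrays. Among 7 mast cell, basophil and megakaryocyte genes 1 was higher and 5 were lower, with a median of -0.20 (-0.21 after quantile normalization, again with 1 higher and 5 lower).

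Notch pathway genes were higher in both replicates for 8 of 10 tested and lower for 0, with a median of 0.20. After quantile normalization the median was 0.09, with 4 higher and 1 lower. It was 0.20 within replicate 1 and 0.27 within replicate 2 in the deposited values. With KO arrays of both dates set against WT replicate 1 alone, which mixes in the date, it was -0.18. The list had a median level of 7.01, within the brightest group of all genes. In that group 1951 of 2896 genes were higher in both replicates and 169 lower. Notch1 differed by 0.02 and 0.36 and Maml1, a coactivator, by 0.41 and 0.24. The target gene Dtx1, at 4.15 and 4.74 in WT and 4.41 and 4.65 in KO, showed no separation in ALP, and the Notch targets Hes1 and Ptcra were below the filter. In prepro NK cells Dtx1 differed by 2.63 and 3.93 (interaction: limma unadjusted p = 0.00205, adjusted p = 1.0; adjusted p = 0.861 without prepro NK WT replicate 2).

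Myeloid genes were mixed. Irf8, a factor of monocyte and dendritic cell fate, read 9.11 and 8.82 in WT and 9.65 and 9.69 in KO, without overlap (0.54 and 0.86). Csf1r, the receptor for macrophage colony-stimulating factor, read 6.09 and 5.96 in WT and 6.45 and 6.57 in KO, and the granule protease Prtn3 6.08 and 5.76 in WT and 6.53 and 6.25 in KO, again without overlap. S100a9 was lower, at 4.46 and 5.09 in WT and 3.71 and 4.43 in KO. Over the list of 15, 6 were higher and 2 lower in both replicates (median 0.18), and Mpo, the brightest, differed by 0.06 and 0.20. For 4 of the 15 both KO arrays were above both WT arrays and for 2 below (8.68% and 7.4% of all genes tested). The part of myeloid cells in the sorted samples was not tested.

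In the BCL2 family 6 of 11 were higher and 3 lower in both replicates, with a median of 0.22. Bcl2l11, which encodes the death inducer BIM, read 5.69 and 3.23 in WT and 6.28 and 4.86 in KO, while its other 2 probe sets above the median on all 4 arrays differed by 0.38 and 0.50 and by 0.50 and -0.30. Its 2 dim probe sets differed by 0.60 and 0.20 and by -0.20 and 0.34. Its mean difference of 1.11 became -0.12 with KO arrays of both dates set against WT replicate 1 alone, which mixes in the date. Bmf, of the same BH3-only class, read 5.50 and 6.25 in WT and 4.97 and 5.68 in KO, whereas a second Bmf probe set was higher in KO (0.22 and 0.40). The probe sets of Bmf thus disagreed. Among stress genes Dnajb1 read 8.25 and 7.61 in WT and 8.76 and 8.40 in KO. Hsph1 read 6.26 and 5.98 in WT and 7.22 and 6.40 in KO. Both genes were higher in KO without overlap (8.68% of all genes tested). Of the 11 immediate early and heat shock genes tested 7 were higher and 4 lower in both (median 0.12).

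The remaining lists had small medians in the deposited values. They were the interferon response (0.17), the trafficking receptors and integrins (0.16), growth and ribosome biogenesis (0.14), the cytotoxic effectors (0.10) and the dendritic cell genes (-0.06). The stem and multipotent progenitor list, the common gamma chain pathway and the erythroid list had medians within 0.03 of 0. The B lineage list stood at -0.17 and the stromal and endothelial list at -0.18. In the limma fit to the 8 arrays 0 members of any of the 24 lists passed at an adjusted p under 0.05, and 0 were under 0.05 unadjusted.

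**Figure D5:**
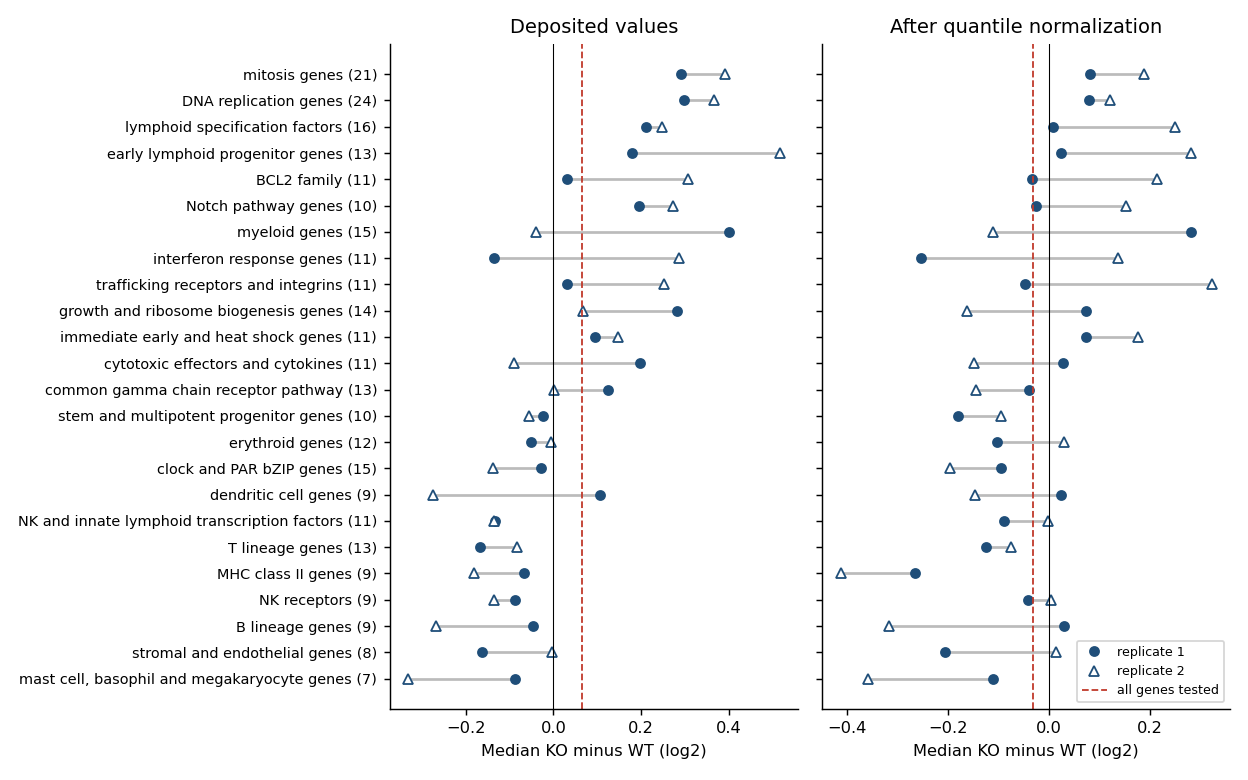
Median KO minus WT difference (log2) of the genes tested in each of 24 gene lists, with the number tested in brackets, in replicate 1 (circle) and replicate 2 (triangle); left deposited values, right after quantile normalization, with a dashed line at the median of all genes tested (0.06 and -0.03). Mitosis and DNA replication genes have the highest list medians in the deposited values (0.34 and 0.33), and quantile normalization lowers them to 0.16 and 0.14.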

How the data were processed

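Per the submitters' processing notes the authors used RMA and Partek, of unstated version, and the deposited values are log2 intensities of 45141 probe sets. Of these, 28898 have 1 gene symbol, 551 several and 15692 none listed; 28689 matched RefSeq by Entrez number and no symbol changed. Genes were tested if above the array median on at least 2 of 8 arrays, with limma 3.58.1 in R 4.3.3 (4 group means, eBayes, two-sided, Benjamini-Hochberg), tested first on simulated data. Alternatives were a replicate block, the ALP arrays alone, quantile and median-SD scaling, other filters and probe sets, and leaving out arrays. The replicate number is the processing date, per the series' design text. Deviations of same-numbered arrays correlated at 0.807 between WT and KO ALP and at 0.149 to 0.675 elsewhere. The KO prepro NK arrays had the lowest correlations with the other groups, 0.149 to 0.205. These correlations across genes do not show that samples were paired beyond the shared date. No 2 arrays were identical. Genes named are Nfil3, the 12 highest and 12 lowest by the smaller of both replicate differences (same sign, brighter genotype above the array median on both arrays), the 5 smallest p each way, up to 4 members of a list (brightest, largest rise, largest fall, smallest p), and fixed NK and bZIP factors; other members and the neighbours of Nfil3 were named after their values were seen. Members, lists and tests were chosen with earlier results of these data known. Promoter windows are RefSeq's for GRCm38.p6, from 250 bases before to 50 after the start.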

Additional observations from a re-analysis of the deposited data

Results flagged for a closer look

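The knockout differences of 2 gene lists had opposite signs in the 2 populations, at both dates in each; the difference between populations was not tested for a list. The median of the T lineage genes was -0.168 in ALP replicate 1 and -0.0837 in ALP replicate 2, against 1.70 and 2.50 in prepro NK cells. The median of the NK receptors was -0.0883 and -0.135 in ALP, against 0.123 and 1.69 in prepro NK cells. After quantile normalization the NK receptor medians in ALP were -0.041 and 0.0033, so the opposite sign was lost in replicate 2. The ALP medians lay near that of the dimmest group of genes, -0.14. In all 4 ALP arrays 5 of the 13 T lineage genes and 4 of the 9 NK receptors were above the array median. Others, such as Cd28, passed the filter through the prepro NK arrays. The replicate 2 values in prepro NK cells rest on the WT array that stood apart. Cd3d, a chain of the T cell receptor complex above the median in all 8 arrays, differed by -0.15 and -1.12 in ALP and by 2.08 and 2.50 in prepro NK cells. Its interaction had an unadjusted limma p of 0.00411 (0.00728 without prepro NK WT replicate 2) and an adjusted p of 1.0.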

How the results depend on the processing

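Nfil3 was lower in all 15 alternatives, with a range of -3.11 to -1.72 when 1 ALP array was left out, and passed in 1 of them, the fit to the ALP arrays with the replicate block (-2.41, 2 genes called). No other alternative called a gene. The 5 genes at an unadjusted p under 0.05 became 44 with the replicate block, 2101 with the ALP arrays and the block, 18 without prepro NK WT replicate 2, 17 with no filter, 27 with quantile normalization and the block, and 1021 with both and the ALP arrays alone; leaving out 1 ALP array gave 1 (without WT replicate 2) to 194 (without WT replicate 1), with 2 without KO replicate 1 and 15 without KO replicate 2. Testing every probe set called 59 with the ALP arrays and the block. Alternatives with quantile normalization and a block, and those over every probe set, were chosen after seeing the data. H2-Eb1, Cd74, H2-Aa, H2-Ab1, Id2 and Auh kept their sign in all 15. Of the 106 genes followed that all 15 tested, 58 did, and 4 of 7 others did in those that tested them. Of 24 list medians 5 did. With the deposited values, a block, other filters, the ALP arrays alone or leaving out a prepro NK array cannot change a gene's difference. Its sign in those alternatives was fixed in advance. Leaving out 1 ALP array unbalances the dates, so a sign that changed there mixes genotype with date. A fit to the ALP arrays with the block has no residual degrees of freedom once an array is left out, so that was not run. Dim probe sets near the array median limit what Nfil3 in KO and the NK and T lineage genes can show.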
